A study of Mus musculus with 10 samples.

Results

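The gene expression of fasted mouse calf muscle was described in the 5 saline libraries of a series of 10. They were chosen by the injection in their labels. The other 5 libraries came from mice given ethanol at 3 g/kg and were not used here. The saline mice, numbered 32, 34, 36, 38 and 39 after their labels, were male C57BL/6 animals aged 12 weeks. All had been housed singly, had gone without food but not water for about 16 h overnight, and had received saline (0.9%) into the peritoneum 1 h before the muscle was taken under isoflurane. Each library is 1 mouse and holds gastrocnemius with plantaris, so the muscles and their fibre regions cannot be separated. The fast, the injection, single housing and the anaesthetic were common to all 5 mice, and no fed or uninjected mouse entered these values.

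Limb muscle is built of long multinucleate fibres whose contractile apparatus, the sarcomere, slides myosin thick filaments past actin thin filaments. Fibres are classed by their myosin heavy chain, from slow oxidative type I (Myh7) through fast types IIa (Myh2) and IIx (Myh1) to the fastest and most glycolytic, type IIb (Myh4), and the mouse gastrocnemius is known as a mainly fast muscle. During a fast, glucocorticoids and the FoxO transcription factors that insulin otherwise restrains switch muscle toward fatty acid use and the release of amino acids from protein.

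The libraries held between 32038927 and 42654771 counts. Levels are CPM, counts scaled to a common library total after TMM adjustment, which aligns the libraries over most genes. Mice 36 and 34 lay at opposite ends of the first principal component of the 500 most variable genes (scores of 16.0 and -9.86, 65.3% of variance), and mice 38 and 39 stood together on the second (7.37 and 4.19, 19.6%). Libraries also differed by transcript length, with a slope of 0.10 log2 units per doubling of exon length in mouse 38, -0.09 in mouse 34 and -0.02 to 0.02 in the others. GC content had slopes of -0.05 log2 units per 10% in mouse 38 and 0.05 in mouse 39. The labels name no batch, and the part of these trends in the results below was not tested except where a value is given.

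The start sites of the 4 adult myosin heavy chain genes are shown first, because the share each takes of myosin counts is the measure of fibre type used below. Myh2, Myh1 and Myh4 lie in that order on the plus strand of chromosome 11 (GRCm38, GENCODE M21), at 67171027 to 67197517, 67200052 to 67224575 and 67238029 to 67260446, and Myh7 lies on the minus strand of chromosome 14 at 54970684 to 54994626. Each window runs from 90 bases before to 20 bases after the RefSeq transcript start (GRCm38.p6), 5′ to 3′ on the gene's strand, with the letters TATAAA in capitals where present. The windows are chr11:67237722-67237831 for Myh4, chr11:67200012-67200121 for Myh1, chr11:67170937-67171046 for Myh2 and chr14:54994607-54994716 for Myh7.
Myh4: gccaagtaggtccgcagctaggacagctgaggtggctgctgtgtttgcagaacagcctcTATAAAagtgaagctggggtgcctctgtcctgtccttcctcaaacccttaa
Myh1: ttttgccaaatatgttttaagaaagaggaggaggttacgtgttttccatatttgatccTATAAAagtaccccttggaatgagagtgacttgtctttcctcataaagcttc
Myh2: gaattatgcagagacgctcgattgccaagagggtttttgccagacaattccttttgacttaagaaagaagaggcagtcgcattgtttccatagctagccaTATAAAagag
Myh7: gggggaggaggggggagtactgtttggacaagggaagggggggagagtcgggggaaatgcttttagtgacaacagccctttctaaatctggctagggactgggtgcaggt
TATAAA, searched on both strands, begins at position -31 in Myh4 and -32 in Myh1, counting the RefSeq start as 0, and at position 10 in Myh2. The Myh7 window holds none. Among RefSeq promoters of 300 bases (250 before and 50 after the start), TATAAA was present in 14.2% of all 27025, in 7.14% of the 8983 of genes at 1 CPM or more, and in 8 of the 39 found for the 50 genes of highest CPM (20.5%). The E box letters CANNTG were present in 31 of those 39 promoters (79.5%), in 62.9% of those of genes at 1 CPM or more and in 72.1% of all. These matches are descriptions of letters only.

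Counts were concentrated in contractile and energy genes. Over the 5 mice, 181.8 ± 11.4 genes held 50% of counts (SD, n = 5), and 1233 ± 55.9 held 75%. The 10 most counted genes took 20.6 ± 0.63% of counts and the 100 most counted 43.8 ± 0.71%. By mean level, 7 genes stood at 10000 CPM or more, 103 at 1000, 1451 at 100, 7419 at 10 and 11736 at 1. Of the 24421 rows, 6559 had no count in any saline library. Protein-coding genes took 99.4 ± 0.02% of counts and long intergenic RNAs 0.25 ± 0.01%.

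**Figure D1:**
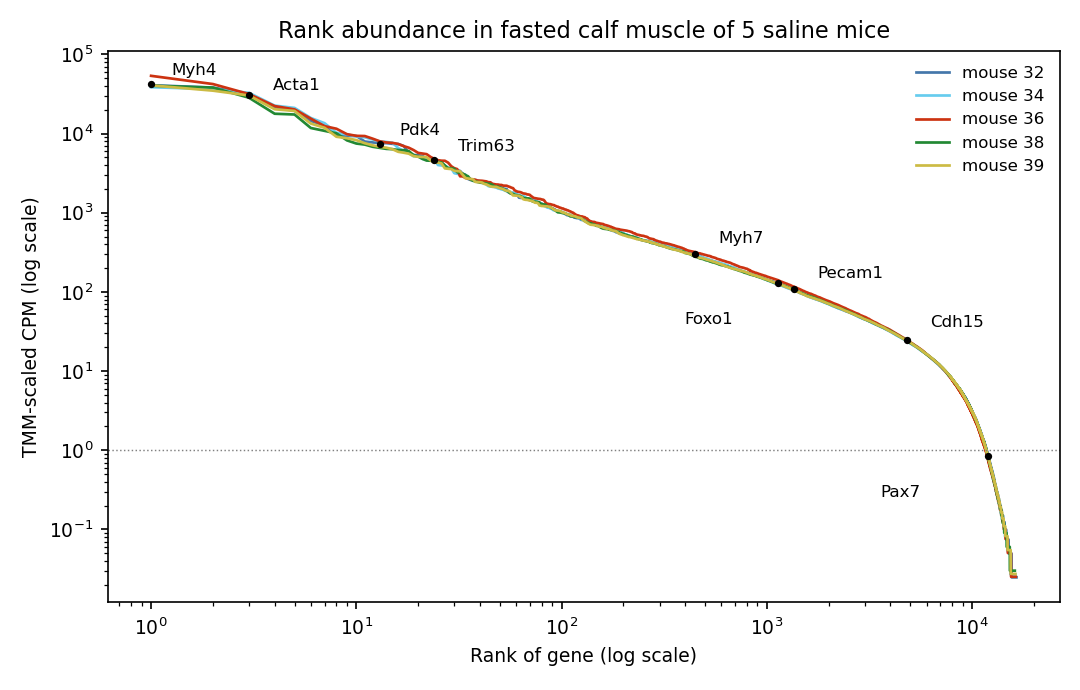
Rank abundance in the 5 saline mice: TMM-scaled CPM (y, log scale) against the rank of each gene (x, log scale), 1 line per mouse, with black points at the mean level of named genes and a dotted line at 1 CPM. The 5 lines run close together, and 7 genes have a mean of 10000 CPM or more.

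Myh4, the IIb myosin heavy chain, was the most counted gene. It had 40826, 38473, 53568, 40138 and 40632 CPM in mice 32, 34, 36, 38 and 39. Mouse 36 was high, and the other 4 lay between 38473 and 40826 CPM. Next by counts came Atp2a1, the calcium pump of fast fibres (37898 ± 2751 CPM, SD, n = 5), and Acta1, skeletal muscle actin (30856 ± 1658 CPM). Tnnt3, fast troponin T, Aldoa, the glycolytic aldolase, Tpm1, a tropomyosin, and Ckm, muscle creatine kinase, followed between 12242 and 20795 CPM. The genes ranked 8 to 20 were Pygm, Tnni2, Tnnc2, Actn3, Myl1, Pdk4, Pvalb, Tpm2, Ttn, Mylpf, Mybpc2, Ryr1 and Myh1. Among them Pdk4 is a kinase known for its response to fasting.

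Long transcripts yield more counts per molecule, so levels were also set per kilobase of exon, where the order changed. Acta1 led with 21339 ± 1147 CPM per kb (SD, n = 5). Tnnt3 (17834 ± 1791), Tnnc2, the calcium sensor of fast troponin (12365 ± 1341), Atp2a1 (10900 ± 791), Aldoa (10709 ± 665) and Tnni2, fast troponin I (10032 ± 1593 CPM per kb), came next. Myh4 stood eighth at 7102 ± 1019 CPM per kb, after Mylpf, the fast regulatory light chain, and just before Pvalb, the calcium buffer parvalbumin. The spreads between mice of the neighbours Aldoa and Tnni2 overlapped, as did those of Mylpf, Myh4 and Pvalb (7747 ± 1529, 7102 ± 1019 and 7025 ± 1328 CPM per kb). Such overlap does not show that the genes are equal, because the same mice supply each gene, and differences within a mouse were not tested. Ttn, the giant protein titin, was far down on this scale, with 60.0 ± 5.80 CPM per kb at rank 878 against rank 16 by counts.

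Sorted into 19 functional classes, 1096 rows took 54.8 ± 1.16% of counts. The thick filament, thin filament and Z-disc classes together took 23.1 ± 0.52% (22.2 to 23.6% over mice). Per kilobase that sarcomere share was 25.9 ± 0.67%. Thin filament genes took 9.86 ± 0.62%, thick filament genes 8.87 ± 0.40%, calcium handling 6.71 ± 0.18% and Z-disc and cytoskeleton 4.32 ± 0.18%. Per kilobase the thin filament share was 16.2 ± 0.64% and the thick filament share 5.94 ± 0.32%. In mouse 36 the thick filament share was highest (9.55%), and in mouse 34 the thin filament share was (10.7%).

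**Figure D2:**
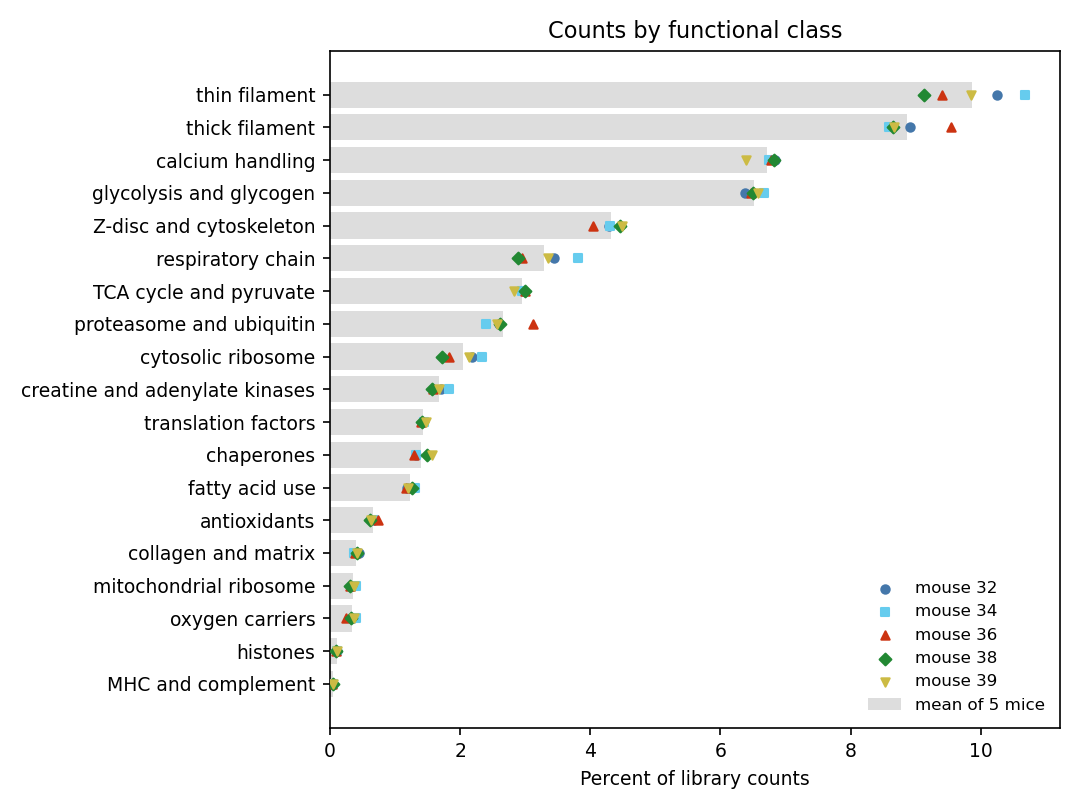
Percent of each library's counts (x) in 19 functional classes (y). Bars are means over the 5 saline mice and points are single mice. The filaments, calcium handling and glycolysis lead, and the proteasome and ubiquitin class is highest in mouse 36 (3.12%).

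Energy genes formed the next block. Glycolysis and glycogen genes took 6.51 ± 0.12% of counts (SD, n = 5), led by Aldoa and by Pygm, muscle glycogen phosphorylase (9838 ± 1005 CPM). Gapdh, Eno3 and Pfkm, 3 further glycolytic enzymes, averaged 5071 ± 337, 5001 ± 522 and 4204 ± 276 CPM. Nuclear-encoded respiratory chain genes took 3.29 ± 0.38% of counts and 7.17 ± 0.69% per kilobase, led by the ATP synthase subunit Atp5b (3490 ± 194 CPM). Their share was 3.81% in mouse 34, 3.44% in mouse 32, 3.35% in mouse 39, 2.95% in mouse 36 and 2.89% in mouse 38. The cytosolic ribosome class had the same 3 mice on top, with 2.33% in mouse 34, 2.19% in mouse 32, 2.14% in mouse 39, 1.83% in mouse 36 and 1.72% in mouse 38. Over all genes, the median deviation of genes with under 1891 bases of exon was also highest in mouse 34, at 0.14 log2 units, and lowest in mouse 38, at -0.16. The TCA cycle and pyruvate class, which includes Slc25a4 (the ADP/ATP carrier, 4189 ± 442 CPM), was steadier at 2.94 ± 0.07%. Fatty acid genes took 1.22 ± 0.06%.

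Genes that make and remove proteins were also well represented. Translation factors took 1.43 ± 0.03% of counts, the cytosolic ribosome 2.04 ± 0.26% and the mitochondrial ribosome 0.35 ± 0.04% (SD, n = 5). The muscle forms of translation genes were prominent. Eef1a2, the elongation factor that replaces Eef1a1 in adult muscle and neurons, had 1049 ± 27.7 CPM per kb against 361 ± 30.0 for Eef1a1. Rpl3l, the striated-muscle paralogue of ribosomal protein Rpl3, had 357 ± 17.4 CPM per kb against 75.8 ± 6.66 for Rpl3. Eef1a1 and Rpl3 were singled out after their values were seen. Any reads shared by such paralogues may have been split between them by the authors' counting, which was not tested. The proteasome and ubiquitin class took 2.66 ± 0.27%, of which Trim63 and Fbxo32, the ubiquitin ligases MuRF1 and atrogin-1, were the most counted members.

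The fast glycolytic programme dominated the fibre-type genes. Of counts on the 4 adult myosin heavy chains, Myh4 took 83.5 ± 2.24%, Myh1 10.1 ± 1.34%, Myh2 5.82 ± 1.03% and Myh7 0.58 ± 0.07% (SD, n = 5), and shares per kilobase were within 0.2 percentage points of these. The Myh4 share was 82.5% in mouse 32, 82.5% in mouse 34, 87.5% in mouse 36, 82.8% in mouse 38 and 82.1% in mouse 39. Mouse 36 thus stood above 4 mice that differed by less than 1 percentage point. It also had the lowest Myh1 and Myh2 shares (7.82% and 4.06%) and the highest Myh7 share (0.67%). Because the shares sum to a whole, a high Myh4 level lowers the other shares, and by level Myh1 in mouse 36 (4790 CPM) was not below mouse 34 (4755 CPM), while Myh2 was lowest in mouse 36 (2486 CPM against 2890 to 3159 CPM in the others).

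Slow-fibre genes were present at a low level that differed between families. Myh4 exceeded Myh7 154 ± 17.1 times per kilobase, Tnnt3 exceeded slow Tnnt1 123 ± 21.9 times, Tnni2 exceeded Tnni1 146 ± 21.1 times and Atp2a1 exceeded the slow and cardiac pump Atp2a2 132 ± 31.3 times (SD, n = 5). The light chains were closer, with Mylpf over Myl2 at 42.7 ± 5.20 and Myl1 over Myl3 at 14.8 ± 1.80. Actn3, the alpha-actinin of fast fibres, exceeded Actn2, which all fibres use, 4.41 ± 0.74 times, and Myoz1 exceeded Myoz2 8.42 ± 0.35 times.

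**Figure D3:**
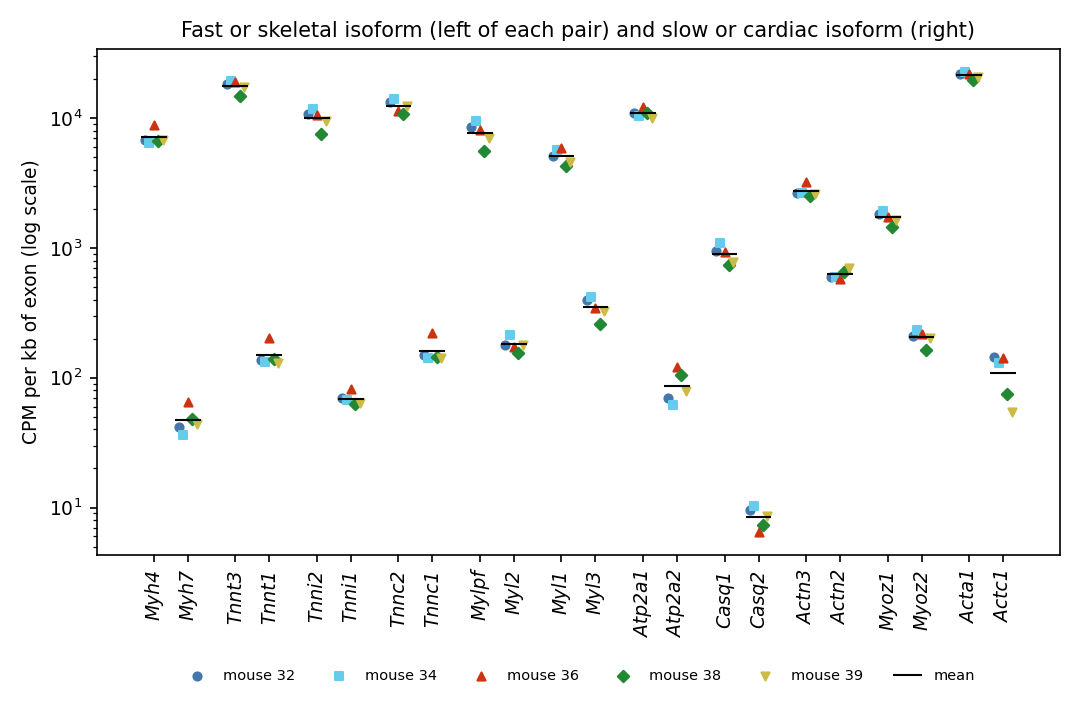
Level per kilobase of exon (y, log scale) of 11 pairs of sarcomere and calcium-handling isoforms, with the fast or skeletal member on the left of each pair and the slow or cardiac member on the right. Points are the 5 saline mice and lines are means. The fast member is higher in every mouse and every pair, and Actc1 is lowest in mice 38 and 39.

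Type I genes did not move as 1 block between mice. Mouse 36 was highest for 6 of the 11 listed members (against 28.3% of all genes). Myh7 had 409 CPM in mouse 36 and 262, 228, 306 and 279.5 CPM in mice 32, 34, 38 and 39, and the pump Atp2a2 and the slow tropomyosin Tpm3 had 639 and 403 CPM there. Tnnt1, Tnni1 and Tnnc1, the slow troponins, were likewise highest in mouse 36, at 219.7, 104 and 161 CPM. The light chains Myl2 and Myl3 were not, at 214 and 368 CPM in mouse 36 against 193 to 267 and 277 to 444 CPM in the others. Casq2, the slow calsequestrin, and Myh7b were lowest in mouse 36 (16.6 and 3.56 CPM). No member of the type I or type IIb list reached a 2-fold range between mice, a range met by 892 of 11736 genes at 1 CPM or more (7.60%).

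In the type IIb list, the short transcripts Tnni2, Mylpf and Pvalb were lowest in mouse 38 (6590, 4557 and 5334 CPM) and highest in mouse 34 (10221, 7833 and 8964 CPM). These 2 mice are also the ends of the length slopes, and the part of transcript length in the difference was not tested. Developmental myosins were scarce: embryonic Myh3, perinatal Myh8 and the embryonic light chain Myl4 averaged 3.51 ± 0.97, 2.52 ± 0.31 and 7.40 ± 1.28 CPM. Myh13, known from eye muscle, had 6.66 ± 1.66 CPM, Myh6, the cardiac heavy chain, 2.94 ± 0.76 CPM, and Myh15 was at or below 0.11 CPM in every mouse. Actc1, the cardiac actin that adult limb muscle keeps at a low level, had 211, 191, 209.9, 110.1 and 80.3 CPM in mice 32, 34, 36, 38 and 39. Mice 38 and 39 lay below the other 3, and Acta1 exceeded Actc1 152 to 383 times per kilobase.

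The muscle-identity regulators varied about as much as a typical gene, with a median SD of log2(CPM + 1) of 0.15, as over all genes. All 15 listed members reached 1 CPM and none had a 2-fold range (against 7.60% of all genes). Nfix had 337 ± 11.4 CPM, Mef2c 329.5 ± 33.5 CPM and Myf6 (MRF4), the myogenic factor of mature fibres, 139 ± 20.3 CPM (SD, n = 5). Myod1, Myog and Myf5, the factors of activated and differentiating precursors, were at 4.31 ± 1.04, 6.41 ± 1.45 and 1.49 ± 0.31 CPM, and were singled out after their values were seen. Among noncoding RNAs, H19, Neat1 and Malat1 averaged 416 ± 63.4, 341 ± 73.9 and 331 ± 64.3 CPM. Of secreted factors, Sparc (378 ± 37.9 CPM) and Fndc5, the irisin precursor (126 ± 7.22 CPM), had no 2-fold range. Mstn, the growth inhibitor myostatin, had a 2-fold range (103, 73.0, 202, 149.6 and 75.9 CPM in mice 32, 34, 36, 38 and 39). Fgf21 and Il6 were at or below 0.05 and 0.44 CPM in every mouse.

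Whole muscle also carries vessels, connective tissue, nerve and resident immune cells, and in these bulk samples fewer cells of a type and less RNA per cell cannot be told apart. All 14 endothelial markers reached 1 CPM. Their defining members Pecam1, Cdh5 and Kdr averaged 108 ± 10.4, 108 ± 6.78 and 35.9 ± 6.14 CPM (SD, n = 5), and the list summed to 829 CPM in mouse 36 against 632 to 697 CPM in the others. Cldn5, a tight junction protein of endothelium, was the one member of 14 with a 2-fold range, a share of 7.14% near the 7.60% of all genes (67.1 CPM in mouse 36 and 17.4 to 35.9 CPM elsewhere). The pericyte and smooth muscle list, without Des, which fibres themselves express, summed to 579 to 692 CPM, with Rgs5, Acta2 and Myh11 at 87.99 ± 14.9, 76.3 ± 13.9 and 69.0 ± 11.5 CPM.

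Connective tissue was represented by all 13 markers of fibroblasts and fibro-adipogenic progenitors. Dcn, the proteoglycan decorin, led with 563 ± 76.6 CPM, and the defining members Pdgfra, Dpt and Pi16 had 32.8 ± 5.65, 41.5 ± 4.23 and 33.9 ± 4.81 CPM (SD, n = 5). Tendon genes were present, with Fmod at 187 ± 26.2 CPM and Thbs4 at 167 ± 44.5 CPM, both also made outside tendon, while the more specific Tnmd, Scx and Mkx were at 5.89 ± 1.20, 3.28 ± 0.805 and 1.23 ± 0.15 CPM. The collagen and matrix class took 0.41 ± 0.03% of counts and had 12 of 71 genes with a 2-fold range (16.9%, against 7.60% of all genes). Adipocyte genes ranged from Pnpla2, a lipase also used by muscle (941 ± 197 CPM), to the defining Adipoq, Plin1 and Lep, at 14.8 ± 3.75, 5.92 ± 1.33 and 1.74 ± 1.56 CPM. Lep, which encodes leptin, had 2.88, 3.84, 0.13, 1.06 and 0.77 CPM in mice 32, 34, 36, 38 and 39, so it was lowest in mouse 36, as were Adipoq (9.22 CPM) and Plin1 (4.12 CPM). Of the 10 adipocyte markers at 1 CPM or more, 7 were lowest in mouse 36 (against 23.5% of all genes), yet the list's sum was highest there (1727 CPM against 1350.03 to 1464 CPM), with Pnpla2 at 1283 CPM. Ucp1 was listed at 0 in all 5.

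**Figure D4:**
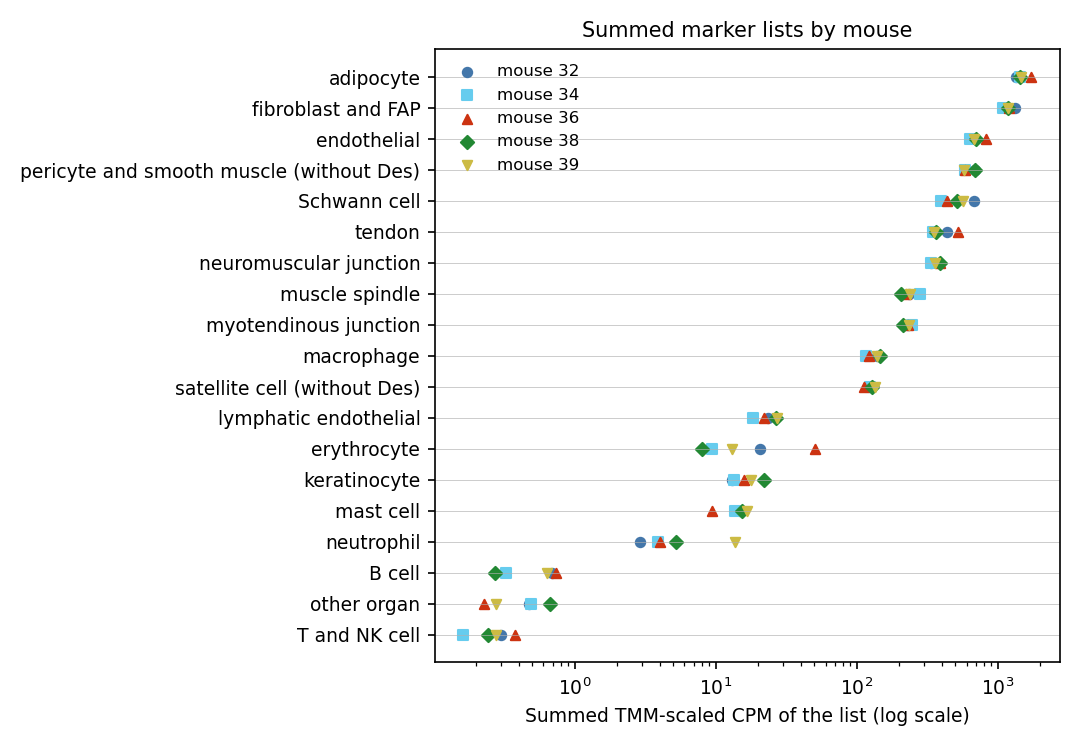
Summed TMM-scaled CPM (x, log scale) of marker lists for non-muscle cells and specialised muscle domains (y), 1 point per saline mouse. The endothelial list sums to 632 to 829 CPM, and the lymphocyte and other-organ lists to under 1 CPM.

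The Schwann cell list, which includes the myelin genes Pmp22 and Mbp, summed to 674, 398, 434, 515 and 567 CPM in mice 32, 34, 36, 38 and 39. Mouse 32 was highest for 9 of the 10 members (against 11.7% of all genes) and mouse 34 lowest for 8 (against 26.7%). Mbp alone had 156, 83.1, 99.7, 117 and 138 CPM, and no member had a 2-fold range (against 7.60% of all genes). At the neuromuscular junction, Chrne and Chrng, the adult and fetal acetylcholine receptor subunits, had 8.02 ± 1.42 and 0.11 ± 0.02 CPM (SD, n = 5). Musk, the receptor kinase that organises the junction, was the one junction gene of 13 with a 2-fold range (7.69%, near the 7.60% of all genes), at 49.1, 20.9, 119, 85.0 and 37.8 CPM. The satellite cell list, without Des, summed to 112 to 134 CPM over the mice. Its members Pax7, the stem cell factor, Myf5 and Calcr were low, at 0.85 ± 0.14, 1.49 ± 0.31 and 0.44 ± 0.13 CPM. Most of the sum came from other members, and 8 of the 10 listed, Des included, reached 1 CPM. Chrne, Chrng, Pax7 and Calcr were singled out as defining markers of their lists.

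Resident immune cells left a small and mostly macrophage signal. The macrophage list summed to 139, 116, 122, 147 and 138 CPM in mice 32, 34, 36, 38 and 39, with Lyz2 at 49.1 ± 6.08 CPM, Csf1r at 15.01 ± 2.97 CPM and Cd163 at 13.4 ± 3.26 CPM (SD, n = 5). Mouse 34 was lowest for 9 of the 11 members at 1 CPM or more (against 26.7% of all genes). The neutrophil list summed to 13.6 CPM in mouse 39 and 2.88 to 5.22 CPM in the other 4, through S100a8 and S100a9 (3.16 and 5.74 CPM in mouse 39) and through Retnlg and Csf3r (1.90 and 2.17 CPM). Mast cell genes Tpsb2 and Mcpt4 had 4.67 ± 0.76 and 3.07 ± 1.05 CPM. No T, NK or B cell marker reached 1 CPM. Cd3e, Cd3d and Cd3g had at most 0.11 CPM in any mouse, where 3 counts correspond to 0.0703 to 0.0936 CPM.

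Blood genes gave an uneven picture. The 4 haemoglobin rows Hba-a1, Hba-a2, Hbb-bs and Hbb-bt were listed at 0 in all 5 libraries, as were Hbb-b1 and Hbb-b2. Alas2, the heme synthesis enzyme of red cell precursors, had 20.3, 9.17, 49.7, 7.85 and 12.9 CPM in mice 32, 34, 36, 38 and 39. Mouse 36 was also highest for Slc4a1, the red cell anion exchanger (0.91 CPM against 0.15 to 0.27 CPM). Whether haemoglobin reads were left unassigned was not tested. Of skin genes, Krt5, Krt14 and Krt1 were listed at 0, as the haemoglobin rows were, so these zeros cannot check dissection. None of 12 genes of liver, pancreas, kidney, brain and testis passed 0.39 CPM in a mouse. Of the 7 members of the keratinocyte list, 2 reached 1 CPM. Trp63 was 1 of them, with 14.8 ± 3.96 CPM without those keratins.

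Genes of the fasting switch in fuel use were abundant. Pdk4, the kinase that closes pyruvate dehydrogenase when glucose is short, ranked thirteenth of all genes by counts. It had 7363, 6028, 9816, 8202 and 5878 CPM in mice 32, 34, 36, 38 and 39. Mouse 36 was highest, followed by mouse 38. Lpl, which frees fatty acids from lipoproteins, had 1603 ± 166 CPM, Fabp3, the muscle fatty acid binding protein, 940 ± 169 CPM, and Cd36, the fatty acid transporter, 770.1 ± 79.0 CPM (SD, n = 5). The beta-oxidation genes Hadha, Hadhb and Acadvl were even, at 665 ± 24.5, 644 ± 29.2 and 579 ± 13.6 CPM. Of the 24 members of the fasting oxidation list at 1 CPM or more, 3 had a 2-fold range (Ucp3, Angptl4 and Txnip), against 7.60% of all genes, and none did over the mice other than 36. Cpt1b, known as the muscle form of carnitine palmitoyltransferase, had 0.38 to 0.73 CPM over the mice. Per kilobase it had 0.18 ± 0.06 CPM, against 3.51 ± 0.46 for the liver form Cpt1a. A row named for Chkb and Cpt1b together was listed at 0, and how reads of these genes were assigned was not tested. Cpt1b, Cpt1a, Ucp3, Angptl4 and Acadvl were singled out after their values were seen.

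Variation between mice was modest for most genes. The median biological coefficient of variation, the spread between mice that remains after counting error, was 0.133 over the 11736 genes at 1 CPM or more, by edgeR. The median SD of log2(CPM + 1) was 0.15. Counts of 9338 genes (79.6%) varied beyond counting error, by a chi-square Poisson dispersion test with Benjamini-Hochberg adjustment, a test that cannot separate animals from library preparation. A 2-fold range was met by 13.5% of genes from 1 to 10 CPM, 3.94% from 10 to 100 CPM, 5.34% from 100 to 1000 CPM and 2.91% above that. Without mouse 36 the 2-fold count was 387 (3.30%) at the same CPM values and 399 after rescaling. Without mice 38 and 39 it was 631 (5.38%).

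Mouse 36 was often highest, and mouse 34 often lowest, among the most variable genes. Of the 200 genes with the largest SD of log2(CPM + 1), mouse 36 was highest for 137 and mouse 34 lowest for 120, while over all genes at 1 CPM mouse 36 was highest for 28.3% and mouse 34 lowest for 26.7%. Of the 60 most variable at 100 CPM or more, mouse 36 was highest for 51. Genes with a 2-fold range and mouse 36 on top numbered 376 of 11736 (3.20%). Mouse 36 was also lowest for 274 of the 892 genes with a 2-fold range (30.7%, against 23.5% of all genes). Mouse 38 was highest for 32 of the 200 (16.0%), below its 20.4% of all genes. Of the 153 promoters found for the 200, 9 (5.88%) held the FoxO letters TGTTTAC. So did 2.43% of promoters of genes at 1 CPM or more and 3.55% of all promoters. For the 50 genes of highest CPM the share was similar, at 2 of 39 (5.13%). These matches describe letters only, and FoxO binding was not tested.

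Glucocorticoid-responsive genes differed widely between mice. This list and those below were chosen with earlier results of these data known, so their shares beside all genes are descriptions only. Of the glucocorticoid list's 20 members, 16 had a 2-fold range between mice (against 7.60% of all genes). Mouse 36 was highest for 18 (against 28.3% of all genes) and mouse 34 lowest for 14 (against 26.7%). Mouse 38 was second highest for 15, a count for which no share over all genes is given here. Over mice 32, 34, 38 and 39 alone, 8 of 20 still had a 2-fold range (against 3.30%). Over all 5 mice with the length trend removed, 16 of 20 did (against 833 of 11736 genes). Glul, glutamine synthetase, had 1127, 871, 2539, 1589 and 1063 CPM in mice 32, 34, 36, 38 and 39. Mouse 36 stood above all others and mouse 38 above the remaining 3. Slc39a14, a zinc and iron transporter, had 41.3, 27.9, 275, 92.4 and 40.7 CPM, a 9.84-fold range. Tsc22d3 (GILZ) and Cebpd, direct glucocorticoid receptor targets in many tissues, ranged from 330.3 to 729.8 CPM and from 342 to 779 CPM in mice 34 and 36. Nr3c1, the receptor itself, ranged from 81.5 to 112 CPM. Fkbp5, Sgk1 and Klf15, chosen after their values were seen, reached 585, 330.4 and 226 CPM in mouse 36 and had 225, 129 and 87.2 CPM in mouse 34.

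**Figure D5:**
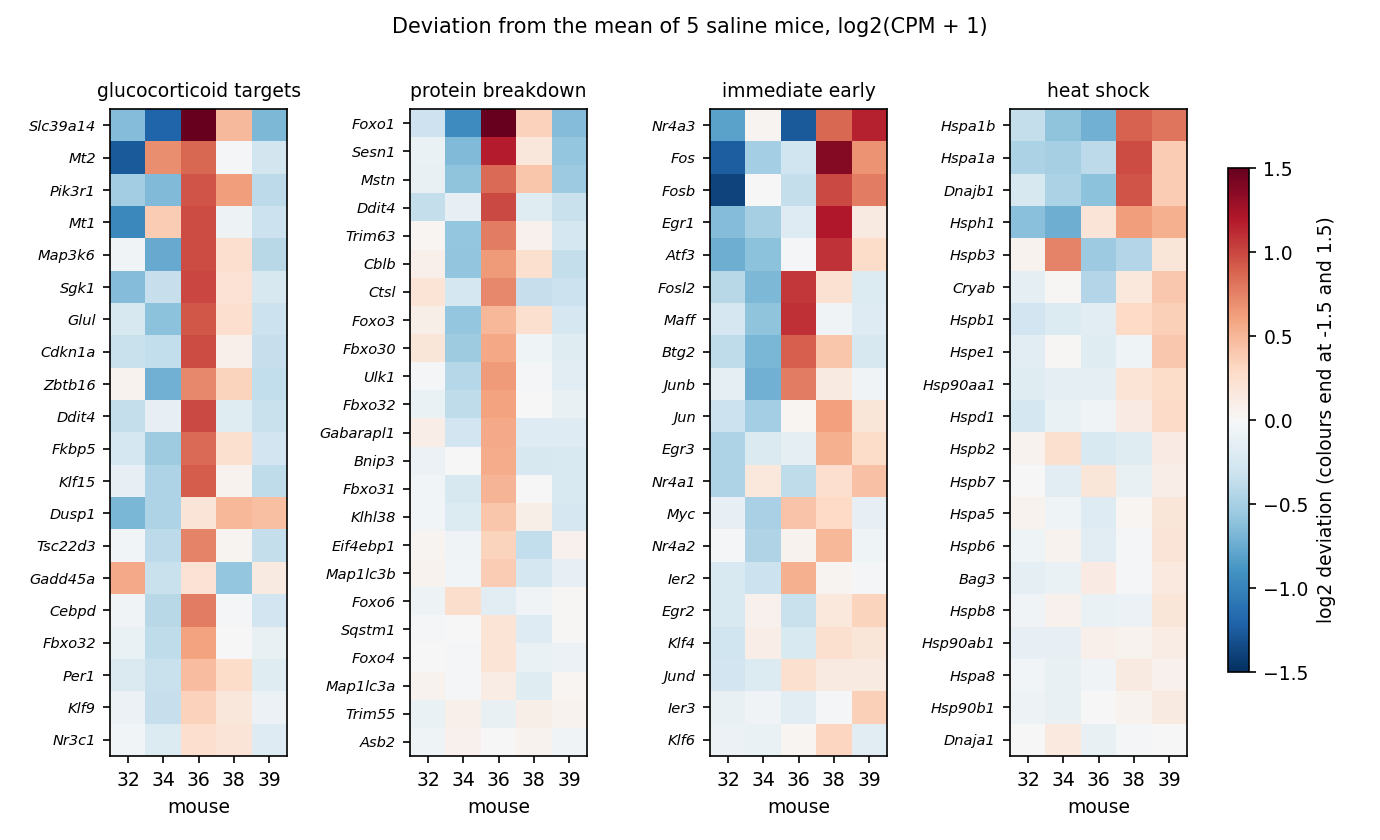
Deviation of log2(CPM + 1) from the mean of the 5 saline mice for members of 4 lists, 1 column per mouse (32, 34, 36, 38, 39) and genes ordered by their SD, with red above and blue below the mean. Mouse 36 is red for most glucocorticoid and protein breakdown genes, and mice 38 and 39 are red for Fos, Hspa1b and Dnajb1.

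Protein breakdown genes were also mostly highest in mouse 36, with a less regular order below it. Of 23 members, 10 had a 2-fold range (against 7.60% of all genes) and 20 were highest in mouse 36 (against 28.3%). Mouse 34 was lowest for 11 (against 26.7% of all genes) and mouse 38 for 7 (against 23.7%). Mouse 38 was also second highest for 11, again with no share over all genes given here. The list summed to 14772, 12249, 22885, 14766 and 13424 CPM in mice 32, 34, 36, 38 and 39. Over the other 4 mice 2 of 23 had a 2-fold range (against 3.30%). With the length trend removed, 8 of 23 did over all mice (against 833 of 11736 genes). Fbxo32 and Ddit4 stand in both this list and the glucocorticoid list. Foxo1, the transcription factor upstream of the atrophy ligases, lies on chromosome 3 at 52268336 to 52353221 and had 84.5, 54.0, 309.8, 133 and 66.1 CPM in mice 32, 34, 36, 38 and 39. Trim63 had 4431, 2910, 7389, 4538 and 3631 CPM, and Fbxo32 had 3370.5, 2781, 5490.4, 3589 and 3354 CPM. For all 3, mouse 36 was highest, mouse 38 second and mouse 34 lowest. Ddit4 and Sesn1, which restrain the growth kinase mTORC1, reached 949.8 and 559 CPM in mouse 36, against 372 to 439 and 155 to 278 CPM in the others. Sqstm1, an autophagy cargo receptor, varied about as much as a typical gene, at 1458 ± 146 CPM (SD, n = 5). Its SD of log2(CPM + 1) was 0.14, against a median of 0.15 over all genes. Asb2, a ubiquitin ligase subunit, varied little, at 900.0 ± 34.4 CPM. Mouse 36 also had the highest share of counts in the proteasome and ubiquitin class, and 7 of that class's 169 genes at 1 CPM had a 2-fold range (4.14%).

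Immediate early genes are switched on quickly by many stimuli, and here they were split between mice 38, 39 and 36. Of 20 members, 12 had a 2-fold range (against 7.60% of all genes), 9 over the mice other than 36 (against 3.30%) and 6 over the mice other than 38 and 39 (against 5.38%). Fos had 48.3, 80.5, 93.3, 302 and 185 CPM in mice 32, 34, 36, 38 and 39. Mice 38 and 39 lay above the other 3. Fosb (7.43, 21.1, 16.3, 42.9 and 36.7 CPM), Nr4a3 (6.96, 13.3, 4.802, 24.3 and 30.0 CPM) and the deubiquitinase gene Otud1 (30.3, 55.5, 24.97, 211 and 147 CPM), which is in no list, showed the same split. Otud1 had the largest SD of log2(CPM + 1) of all genes at 1 CPM, 1.34. Btg2, an antiproliferative gene, was instead highest in mouse 36 (327 CPM against 109 to 235 CPM). Egr1 and Atf3, chosen after their values were seen, were highest in mouse 38 at 53.7 and 95.4 CPM, against at most 25.01 and 53.7 CPM in the others.

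Heat shock genes were mostly highest in mice 39 and 38, for 11 and 5 of 20 members, where those mice were highest for 13.8% and 20.4% of all genes. Mouse 36 was highest for 1 member and lowest for 10 (against 28.3% and 23.5% of all genes). A 2-fold range was met by 5 members (against 7.60% of all genes), and by 1 over the mice other than 38 and 39 (against 5.38%). Hspa1b, an inducible HSP70, had 8.72, 7.17, 6.52, 22.0 and 20.6 CPM in mice 32, 34, 36, 38 and 39, and its co-chaperone Dnajb1 had 12.9, 10.8, 9.70, 30.5 and 20.4 CPM. Both were chosen after their values were seen, and both were highest in mice 38 and 39. The constitutive and abundant members Hspa8 and Hsp90ab1 varied less, at 1578 ± 112 and 1963 ± 159 CPM (SD, n = 5). Cryab, a small heat shock protein of the Z-disc, had 719, 803, 588, 889.6 and 1053 CPM. With the length trend removed, 5 of 20 members had a 2-fold range over all mice (against 833 of 11736 genes). The GC slopes of mice 38 and 39 were -0.05 and 0.05 log2 units per 10%. The part of GC content in the levels of these genes was not tested.

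Clock genes were most often highest in mouse 36, for 8 of 19 members, with mice 38 and 39 highest for 4 each. The list summed to 1350, 1196, 2003, 1464 and 1331 CPM in mice 32, 34, 36, 38 and 39. Over all genes mice 36, 38 and 39 were highest for 28.3%, 20.4% and 13.8%. Of the 19 members, 6 had a 2-fold range (against 7.60% of all genes) and 1 did over the mice other than 36 (against 3.30%). Cry2, a repressor of the clock, had 112, 64.4, 236, 98.7 and 93.6 CPM in mice 32, 34, 36, 38 and 39, and Rora, an activator of Arntl, had 218, 177, 465, 334 and 245 CPM. Tef, a further clock-linked transcription factor, stayed between 221 and 256 CPM. Dbp, a strongly rhythmic output gene chosen after its values were seen, lay between 5.97 and 8.27 CPM.

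Other genes among the 20 most variable had varied roles and mostly the same extremes. Doc2b, a vesicle fusion factor, Tfcp2l1, a transcription factor, Rgs2, which curbs G protein signalling, Tiparp, a mono-ADP-ribosyltransferase, Slc7a8, an amino acid transporter, and Sox4 were each highest in mouse 36, at 37.7, 143, 85.2, 122, 83.5 and 40.8 CPM. Their lowest values were 4.74, 21.5, 12.1, 23.7, 14.2 and 5.95 CPM. Igfn1, a Z-disc gene, had 27.7, 36.1, 161, 83.5 and 84.7 CPM in mice 32, 34, 36, 38 and 39. Arl4d, Arhgap26 and D230025D16Rik were also highest in mouse 36, at 148, 52.2 and 363 CPM. Dusp10, a phosphatase of stress kinases, ran the other way, with 9.70 CPM in mouse 36 and 32.9 to 49.2 CPM elsewhere. Hmox1, heme oxygenase, had 22.6, 109, 90.5, 38.8 and 47.1 CPM, high in mice 34 and 36. The metallothioneins Mt1 and Mt2, metal-binding proteins, were also highest in those mice (192 and 289 CPM for Mt1, 135 and 151 CPM for Mt2) and lowest in mouse 32 (74.2 and 34.0 CPM).

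The steadiest genes at 100 CPM or more spanned household and muscle functions. Pla2g16, a phospholipase, had the smallest SD of log2(CPM + 1), 0.02, with 299 to 308 CPM over the 5 mice. Trip10, Klhl40, a stabiliser of thin filaments, Ppp2ca, a phosphatase catalytic subunit, and Ddx1 followed, and each had its highest mouse within 1.05 times the lowest. Dlst and Got2, mitochondrial enzymes, averaged 354 ± 7.68 and 609 ± 13.4 CPM. Des, the intermediate filament protein desmin, combined steadiness with abundance, at 4535, 4643, 4530.2, 4371 and 4584 CPM in mice 32, 34, 36, 38 and 39. Nomo1 averaged 145 ± 3.30 CPM.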

How the data were processed

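Levels are in CPM, the usual scale of counts per library size. Poly(A) RNA of the 5 saline mice was sequenced single-end on a NovaSeq instrument, per the labels' protocols. The deposited table holds whole-number read counts per gene symbol. The submitters' processing notes name TopHat2, DESeq2 1.6.3 and mm10. No source used here states the counter, the annotation or the use of strand, so overlapping and antisense genes cannot be told apart. From the deposited counts, TMM-scaled CPM and tagwise dispersions were computed with edgeR 4.0.16 in R 4.3.3, and summaries with Python 3.11.15. Shares are percents of each library's total. Symbols were matched to GENCODE M21 for 24033 of 24421 rows (98.4%), which gave exon lengths. The 27 rows with a calendar date in place of a symbol held 0.0979% of counts. Totals were 32038927 to 42654771 counts, so 3 counts equal 0.0703 to 0.0936 CPM, which covers counting error only. No row of the deposited counts has a symbol starting with mt-, the prefix of mitochondrially encoded genes, and such genes were not analysed here. The library totals and shares therefore hold no such rows.

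Variation was described by a 2-fold range (highest at least 2 times the lowest mouse, mean of 1 CPM or more) and tested with a chi-square Poisson dispersion test (4 degrees of freedom, Benjamini-Hochberg threshold 0.05). Scripts were tested on simulated data. The length trend and the counts without mice 38 and 39 were chosen after seeing the data. Members and lists were chosen with earlier results of these data known. Genes named were the 20 highest by CPM and per kilobase, all fibre-list members, up to 5 of highest mean per list and class, the 20 most variable, and at 100 CPM the 10 most and 10 least variable. Some genes that meet this rule are not reported here. Others were named after their values were seen, among them Actn2, Myoz1, Actc1, Myf6, Fgf21, Il6, Kdr, Cldn5, Pdgfra, Dpt, Pi16, Scx, Mkx, Adipoq, Plin1, Lep, Ucp1, Cd3g, Hbb-b1, Krt1, Krt14, Nr3c1, Arntl, Chkb and Mt2.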

Additional observations from a re-analysis of the deposited data

Results flagged for a closer look

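In each of these, 1 mouse lay far from the other 4, with a gap to its neighbour above 0.71 of the range. Chance gives about 1 in 20 such groups, 6.19% of all genes at 1 CPM or more met the limit, and 32 of 240 values examined did. No cause was tested.

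Mouse 36 was high for summed type I fibre genes (2794 CPM), summed protein breakdown genes (22885 CPM) and the Myh4 share of myosin (87.5%). It was high for the muscle genes Myh4 (53568 CPM), Actn3 (9353 CPM), Tnnt1 (219.7 CPM) and Tnnc1 (161 CPM). Pnpla2 (1283 CPM), Slc4a1 (0.91 CPM) and Cry2 (236 CPM) were also high there. Among hormone and stress-linked genes it was high for Slc39a14 (275 CPM), Tsc22d3 (729.8 CPM), Cebpd (779 CPM), Klf15 (226 CPM) and Ddit4 (949.8 CPM). Doc2b, Rgs2, Sox4, Arl4d and Arhgap26 had 37.7, 85.2, 40.8, 148 and 52.2 CPM in it. Mcpt4 was low in mouse 36 (1.24 CPM).

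Mouse 39 was high for the neutrophil list (13.6 CPM), S100a8 (3.16 CPM), S100a9 (5.74 CPM), Cd3d (0.11 CPM) and Dbp (8.27 CPM), and low for the calcium handling (6.39%) and TCA cycle (2.83%) shares. Mouse 38 was high for Egr1 (53.7 CPM) and Pla2g16 (308 CPM) and low for Mkx (0.97 CPM). Mouse 34 was high for Hadhb (695 CPM).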

How the results depend on the processing

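Shares of the 10 most counted genes and of sarcomere genes were 25.7% and 25.9% per kilobase, against 20.6% and 23.1% by counts, and 110.6 genes then held 50% against 181.8. The 2-fold count of 892 was 3154 with no filter on low counts, 414 at a mean of 5 CPM or more, and 399 to 795 with 1 mouse left out, lowest without mouse 36. The median biological coefficient of variation was 0.116 to 0.146 with 1 mouse left out, against 0.133. The cause was not tested. Of the other values that answer a comparison, 53 moved less than 1 SD between mice or 1.5 times for a count, under scaling, thinning, GC and the remaining alternatives. No level of 312 named genes moved by more than 1 SD under other library scalings or with 1 mouse left out. Leaving out 1 of 5 mice cannot move a mean by 1 SD of those mice. For these levels, and for shares averaged over mice, that setting could therefore not have shown a move. No paired analysis was possible because the libraries form 1 group. Depth limits genes near 1 CPM, about 32.0 counts in the smallest library.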
